A study of Mus musculus with 17 samples.

Results

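Some neighbouring genes end so near each other that one stretch of chromatin serves both, and 2014 such closely spaced pairs were examined in mouse urothelium. A pair was formed by protein-coding genes of chromosomes 1 to 19 whose spans do not overlap and whose facing ends lie at most 1000 bp apart. The region of a pair was the gap between the genes plus 500 bp on each side. The rule used gene coordinates (GRCm38.p6, the assembly of mm10) and no measured value. It gave 2014 pairs with 3614 of the 20665 protein-coding genes, and 409 of these genes stand in more than 1 pair. For comparison, 21710 of the 41330 gene ends have no end of another protein-coding gene within 10000 bp, and each of these isolated ends was given a window of 500 bp on both sides. The strand of both genes was known for 1435 pairs (71.3%). Of these, 565 are head-to-head (both genes start at the gap), 448 run in the same direction and 422 are tail-to-tail (both genes end at the gap). The remaining 579 pairs, and 4527 isolated ends, have no direction in the sources used here. The median gap was 259 bp over all pairs, 100 bp in head-to-head pairs, 452.5 bp in pairs of one direction and 381 bp in tail-to-tail pairs.

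Gene pairs that start back to back share a bidirectional promoter, which is often rich in CpG dinucleotides and common among genes for DNA repair, replication, histones and mitochondria. STAG2 belongs to cohesin, a ring-shaped complex that folds chromosomes into loops and holds sister chromatids together. LIN54 is the DNA-binding subunit of MuvB, and it recognises the cell cycle homology region (CHR) of late cell cycle genes. With p130, a pocket protein that binds E2F factors, MuvB forms DREAM, which keeps cell cycle genes silent in resting cells.

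The assay was CUT&RUN: a nuclease tethered to the antibody cuts the DNA beside a bound protein, and the cut fragments are sequenced. The cells came from peeled mouse urothelium, the epithelium that lines the bladder, of genotype Stag2-WT or Stag2-KO (WT and KO here). All animals of both genotypes were sampled 1 week after TMX induction, so the WT libraries carry that treatment too. Strain, age and the driver of the recombination are not given in the sources used here, and the samples are labelled as biological replicates. STAG2 was profiled in 4 libraries (2 of each genotype), LIN54 in 5 (3 of WT, 2 of KO) and p130 in 6 (3 of each). The STAG2 and LIN54 libraries are labelled batch 1, p130-WT replicate 1 batch 2 and the other p130 libraries batch 3.

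Each library is a list of 285257 to 506896 peaks on these chromosomes, with p up to 0.05, and each peak has 1 summit. Only 313 to 25604 peaks of a list reached q 0.01, so the main results are shown for all deposited peaks and for those of q 0.01. A summit in a pair region rested on a median of 6 to 13 fragments over a background of 1.75 to 2.74 fragments, so a region without a summit is one where none was detectable at this depth. The whole span of Stag2 held 6 and 11 summits in the STAG2-WT libraries and 1 in each STAG2-KO library. It held 10 to 20 and 3 in the LIN54 libraries of WT and KO, and 27, 1 and 3 (WT) against 0, 2 and 1 (KO) in the p130 libraries, which overlapped. Among urothelial genes, the uroplakins Upk1a, Upk1b, Upk2 and Upk3a had a summit at an end in 11, 14, 11 and 10 of 15 libraries and the keratins Krt5 and Krt20 in 6 and 12. Genes of other cells had one in 3 (Ptprc, leukocytes), 10 (Col1a1, fibroblasts), 6 (Myh11, smooth muscle) and 6 libraries (Pecam1, endothelium). At q 0.01 these counts were 4, 0, 7, 1, 0 and 0 for the urothelial genes and 0, 2, 1 and 0 for the others, so the marker lists overlapped. Summits at gene ends do not measure how many cells of a type were present.

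The promoters of 5 pairs are given as examples. They were read from RefSeq (GRCm38.p6), run 5′ to 3′ along the gene named and cover 250 bases before and 50 after its start. Capitals mark the letters searched on both strands: TTTGAA or TTCGAA for the CHR, TTTGGCGC, TTTCGCGC, TTTCCCGC or TTTGCCGC for E2F, and CCAAT for the CCAAT box. In all 16457 promoters of this length, 17.5% hold a CHR match, 2.95% an E2F match and 39.1% a CCAAT box, and a match is a description of the letters, not a bound site. Cks1b, H4c1, Slbp and Cggbp1 belong to pairs chosen by the naming rule, but that rule named more pairs than are printed. Lin52 was chosen after its values had been seen. Among other named pairs, the promoters of Tsen54, Hdlbp, Septin2, Fiz1 and Tacc3 held no match of these letters. At Tsen54, Agpat1 and Nhej1 the best summit fell outside the promoter in every library that had one.
Cks1b (head-to-head with Shc1), minus strand of chr3:89418242-89418541: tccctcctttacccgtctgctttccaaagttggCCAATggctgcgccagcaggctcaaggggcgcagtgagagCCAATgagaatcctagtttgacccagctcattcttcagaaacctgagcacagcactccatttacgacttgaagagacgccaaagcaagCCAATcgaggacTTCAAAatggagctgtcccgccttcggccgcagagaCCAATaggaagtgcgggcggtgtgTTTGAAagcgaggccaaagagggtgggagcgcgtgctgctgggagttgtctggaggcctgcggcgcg
H4c1 (beside H3c1), minus strand of chr13:23761200-23761499: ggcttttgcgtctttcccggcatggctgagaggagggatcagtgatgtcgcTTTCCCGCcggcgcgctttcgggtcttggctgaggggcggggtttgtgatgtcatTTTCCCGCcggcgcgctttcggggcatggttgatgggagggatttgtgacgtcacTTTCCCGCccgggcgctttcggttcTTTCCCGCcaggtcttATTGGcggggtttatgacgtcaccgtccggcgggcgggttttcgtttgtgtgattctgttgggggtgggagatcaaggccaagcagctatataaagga
Slbp (same direction as Tmem129), minus strand of chr5:33652525-33652824: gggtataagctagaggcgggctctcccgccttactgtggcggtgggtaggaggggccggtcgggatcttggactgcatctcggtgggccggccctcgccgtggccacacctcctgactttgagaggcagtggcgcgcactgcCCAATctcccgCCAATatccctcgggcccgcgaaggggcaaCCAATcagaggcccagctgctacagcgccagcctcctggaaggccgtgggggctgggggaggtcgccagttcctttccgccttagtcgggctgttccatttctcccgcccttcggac
Cggbp1 (beside Zfp654), plus strand of chr16:64851751-64852050: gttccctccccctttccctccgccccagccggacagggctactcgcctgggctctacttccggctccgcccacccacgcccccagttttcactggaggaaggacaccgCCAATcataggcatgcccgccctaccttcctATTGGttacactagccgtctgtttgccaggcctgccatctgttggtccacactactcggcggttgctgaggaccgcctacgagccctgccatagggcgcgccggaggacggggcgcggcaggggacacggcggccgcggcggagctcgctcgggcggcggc
Lin52 (head-to-head with Aldh6a1), plus strand of chr12:84451258-84451557: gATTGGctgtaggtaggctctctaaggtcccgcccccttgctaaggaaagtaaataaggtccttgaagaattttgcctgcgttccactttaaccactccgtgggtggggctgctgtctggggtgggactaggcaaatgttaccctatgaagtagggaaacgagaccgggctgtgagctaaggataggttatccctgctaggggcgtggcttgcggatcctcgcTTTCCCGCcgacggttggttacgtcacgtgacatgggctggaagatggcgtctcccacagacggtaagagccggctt

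Positions below count from the start of the gene, with negative values before it. Cks1b encodes a small partner of cyclin-dependent kinases and Shc1 an adaptor of growth factor receptors. At Cks1b the best LIN54 summit lay at -179 to -143 in all 5 LIN54 libraries, and the best p130 summit at -185 to -52 in all 6 p130 libraries. The CHR matches there begin at -77 and -17 and CCAAT boxes at -217, -177, -89 and -41. H4c1 encodes a replication-dependent histone H4, and its promoter holds the E2F letters TTTCCCGC 4 times, beginning at -199, -144, -89 and -64. Its best p130 summit lay between -222 and -183 in all 6 libraries. Slbp encodes the protein that binds the stem-loop of histone mRNAs, and its best p130 summit lay between -111 and 5 and its best LIN54 summit between -61 and 45. At Cggbp1, which encodes a binder of CGG repeats, the best STAG2 summit fell between -148 and -89 in all 4 libraries, KO included. Its CCAAT boxes begin at -142 and -111.

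The Aldh6a1/Lin52 gap of 483 bp joins a mitochondrial dehydrogenase and a subunit of MuvB itself. Its best p130 summit lay between -190 and -141 of the Lin52 start in all 6 libraries. The best LIN54 summit lay between -320 and -246, nearer to Aldh6a1, in all 5 libraries. The positions of the 2 antibodies did not overlap, while STAG2 summits ranged from -373 to -183 and overlapped both. This offset was picked out after the values had been seen and has no test.

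In every library a larger share of close pairs than of isolated ends held a summit. In the deposited lists 30.8% to 60.3% of the pair regions had one (median 50.4%), and 18.4% to 28.6% of the isolated ends (median 24.2%). Pair regions are wider by the length of the gap. In a window of the same width as at isolated ends, set on the middle of the gap, the share was 26.5% to 54.4% (median 45.4%). Gene ends between both classes, with another end over 1000 and up to 10000 bp away, had summits in 19.5% to 30.6% of windows. With q 0.01 the shares were 1.79% to 36.1% of pairs and 0.355% to 13.8% of isolated ends.

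**Figure D1:**
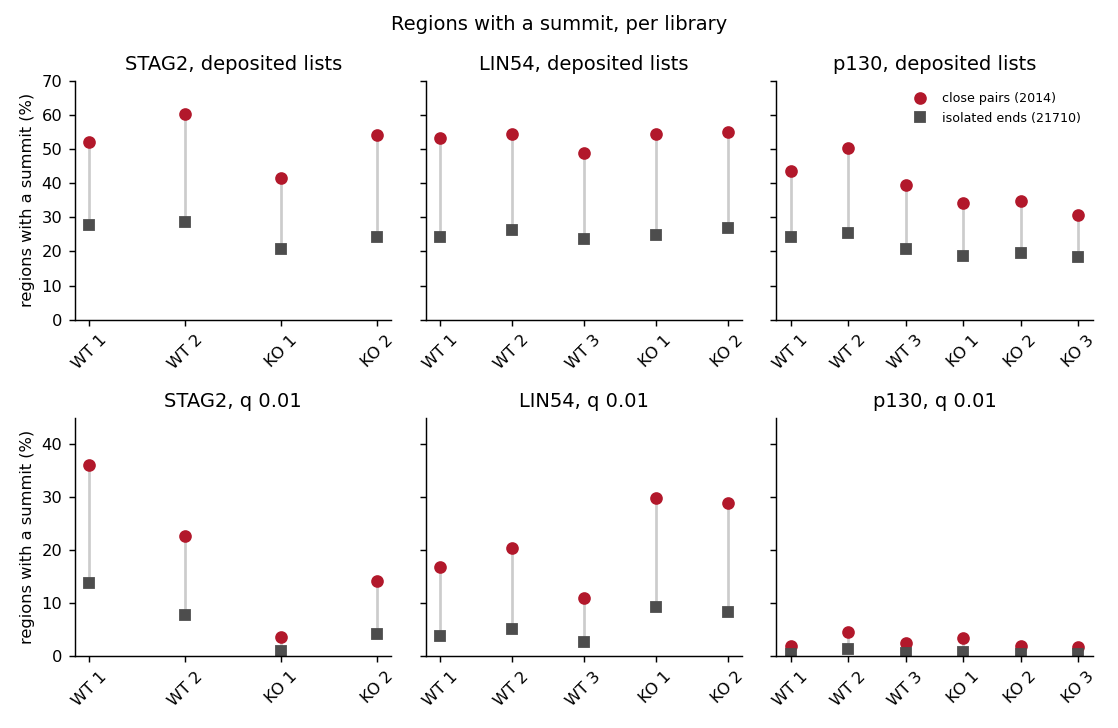
Percent of the 2014 close pair regions (circles) and 21710 isolated gene ends (squares) with a summit in each library, for the deposited lists (top) and at q 0.01 (bottom), by antibody. The circle lies above the square in every library, from 30.8% against 18.4% in p130-KO replicate 3 to 60.3% against 28.6% in STAG2-WT replicate 2 (deposited lists).

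Counted per kb, STAG2 libraries held 0.414 ± 0.068 summits in pair regions and 0.260 ± 0.037 at isolated ends (SD, n = 4, deposited lists). The log2 ratio of pairs to isolated ends was 0.67 ± 0.11 for STAG2 (n = 4), 0.73 ± 0.06 for LIN54 (n = 5) and 0.52 ± 0.09 for p130 (n = 6), with every library above 0. Two-sided exact permutation tests by sign flips of the libraries gave p = 0.125, 0.0625 and 0.03125, each the smallest its number of libraries allows. Adjusted by Benjamini-Hochberg over 24 tests, these p-values were 0.188, 0.167 and 0.167, above 0.05. Over all 15 libraries the mean was 0.63 (1.54-fold) and the exact permutation p 6.10e-05, the smallest possible, although libraries of different antibodies came from the same genotypes. Among peaks of q 0.01 the log2 ratios were 1.21 ± 0.22, 1.50 ± 0.18 and 1.81 ± 0.26. The STAG2 values include the 2 KO libraries, where the ratio was 0.70 ± 0.11, against 0.64 ± 0.15 in WT (deposited lists). At q 0.01 it was 1.39 ± 0.11 in KO and 1.04 ± 0.10 in WT. What the STAG2 antibody marks in KO was not tested. The pairs just inside the 1000 bp limit were Nfkbiz/Nxpe3, Gm30191/Grrp1 and Pcgf2/Psmb3 (gaps of 998, 999 and 999 bp), with a summit in 11, 12 and 12 libraries. Those just outside were Pigz/0610012G03Rik, Ankrd34a/Lix1l and Nup93/Slc12a3 (1001, 1006 and 1008 bp), with 3, 11 and 8.

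The strength of the summits differed less than their number. The authors' best fold (pileup over background in one library) in a marked pair had a median of 3.12 ± 0.58 for STAG2, 3.33 ± 0.46 for LIN54 and 2.51 ± 0.12 for p130. At marked isolated ends these medians were 2.75 ± 0.37, 2.74 ± 0.19 and 2.38 ± 0.095. The log2 ratio of the medians was 0.18, 0.27 and 0.08, above 0 in 15 of 15 libraries. At q 0.01 it was 0.03, 0.14 and 0.07, and 3 of the 6 p130 libraries were at or below 0.

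In the deposited lists the mean log2 ratio to isolated ends was larger for head-to-head pairs than for the other directions, for each antibody. A summit lay in 42.7% to 86.0% of the 565 head-to-head regions (median 73.3%, deposited lists), in 28.8% to 57.4% of the 448 regions of one direction (median 46.9%) and in 19.2% to 36.0% of the 422 tail-to-tail regions (median 24.9%). Isolated 5′ ends had one in 21.2% to 40.8% (median 33.4%) and isolated 3′ ends in 11.0% to 21.2% (median 14.4%). Per kb, head-to-head regions exceeded isolated 5′ ends by log2 0.88 ± 0.18 for STAG2, 1.00 ± 0.05 for LIN54 and 0.82 ± 0.10 for p130, in 15 of 15 libraries (exact permutation over all 15, p = 6.10e-05). A head-to-head region holds 2 gene starts and an isolated window 1, and the mean ratio was 1.86-fold. Among peaks of q 0.01 the mean over the 15 libraries was 1.82 (3.53-fold).

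Pairs of one direction hold 1 start each and per kb were close to isolated 5′ ends, with log2 ratios of 0.03 ± 0.09, 0.14 ± 0.06 and 0.09 ± 0.17 for STAG2, LIN54 and p130. At q 0.01 these were -0.14, 0.04 and -0.23. Their regions are wider than an isolated window, which lowers a value per kb. In the window of equal width on the middle of the gap, the median share with a summit was 38.8%, against 33.4% at isolated 5′ ends (deposited lists). At q 0.01 these medians were 6.25% and 5.16%. Tail-to-tail pairs exceeded isolated 3′ ends by 0.50 ± 0.27, 0.40 ± 0.18 and 0.25 ± 0.20, in 14 of 15 libraries. With q 0.01 the tail-to-tail ratios were 0.99, 0.95 and 2.06 on few summits. Each p130 library had at most 1 tail-to-tail pair with a summit there. The p130 ratio thus rests largely on the pseudocount of 0.5 summits and cannot be ranked against that of head-to-head pairs (1.99). Both comparisons were added after the data had been seen. At q 0.01 few tail-to-tail pairs were left: 399 of 422 had no summit in any library, against 82 of 565 head-to-head pairs. Tail-to-tail pairs marked at q 0.01 in most libraries were Duox1/Shf and Smim27/Ndufb6, in 5 libraries each; Duox1 encodes an NADPH oxidase of epithelia and Ndufb6 a subunit of mitochondrial complex I.

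**Figure D2:**
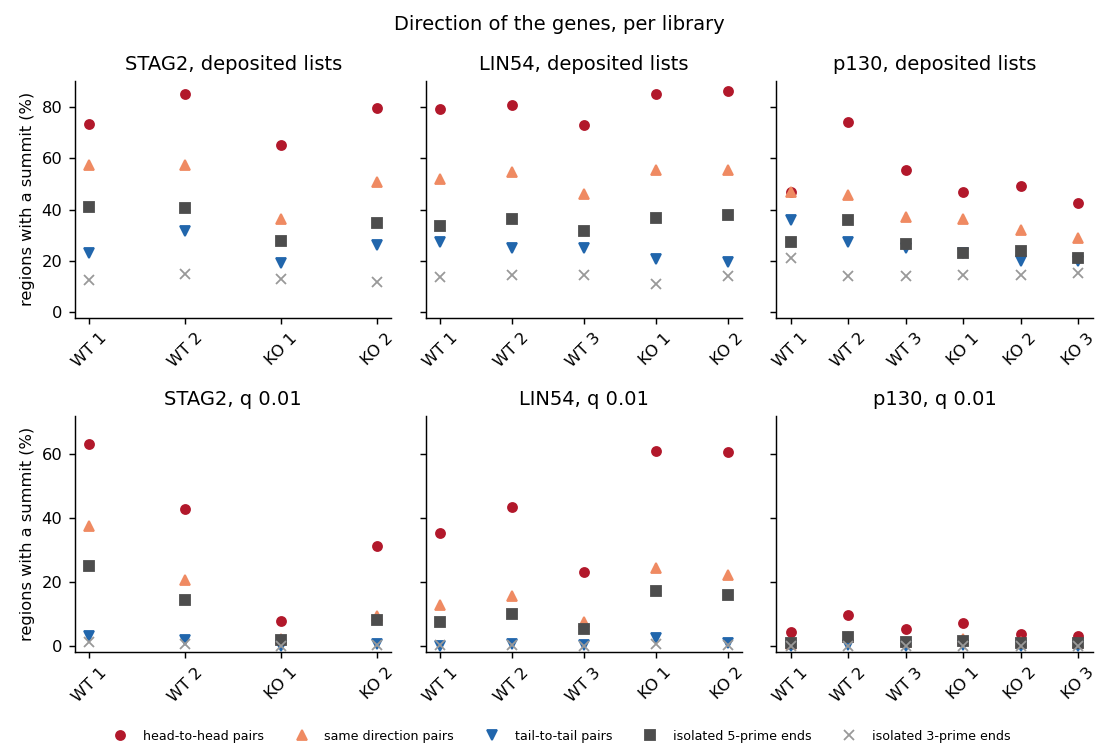
Percent of regions with a summit in each library by direction of the genes, for the deposited lists (top) and at q 0.01 (bottom). Head-to-head pairs (red circles) have the highest share in 14 of 15 libraries of the deposited lists and in all 15 at q 0.01, and isolated 3′ ends (crosses) the lowest in the deposited lists.

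The exception is p130-WT replicate 1, of batch 2 and with the most peaks (506896), where 46.7% of head-to-head pairs and 46.9% of pairs of one direction held a summit. The 5 batch 3 libraries of p130 gave a log2 ratio of 0.86 for head-to-head pairs over isolated 5′ ends, against 0.82 with it.

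Base composition differs between these classes. Of the head-to-head starts with a RefSeq promoter within 500 bp, 918 of 1027 (89.4%) were CpG-rich (observed over expected CpG of at least 0.6), against 3441 of 7874 isolated starts (43.7%). In a comparison added after the data had been seen, windows of 500 bp on each side of each start were used. With a median gap of 100 bp, the window of a head-to-head start often held the partner start too. One summit could then count for both windows. Among CpG-rich starts, head-to-head exceeded isolated ones by log2 0.37 ± 0.20 (STAG2), 0.49 ± 0.06 (LIN54) and 0.42 ± 0.08 (p130), against 0.96, 1.10 and 0.87 over all starts. It stayed above 0 in 15 of 15 libraries (exact permutation over all 15, p = 6.10e-05, the smallest possible). The CpG-rich values at q 0.01 were 0.69, 0.97 and 0.95. Among CpG-poor starts, of which only 109 were head-to-head, the deposited lists gave 1.43, 1.56 and 1.12 and q 0.01 gave 3.00, 3.43 and 4.04. The parts of CpG content and of the second start in the remaining difference were not tested.

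Within head-to-head regions the summits gathered on the gap. In the median library 30.6% of their summits lay in the gap, which makes up 14.6% of the width of these regions, and 44.0% at q 0.01. In tail-to-tail regions the gap held 29.8% of the summits and 28.5% of the width. Around the middle of head-to-head gaps, LIN54 had 17.8 summits per 100 pairs and 100 bp, 8.83 times the level at 2000 to 3000 bp away. For STAG2 the ratio was 8.25 and for p130 5.55. At the end itself, isolated 5′ ends rose 3.17-fold for LIN54, 3.56-fold for STAG2 and 2.10-fold for p130. Their highest LIN54 value was centred 150 bp before the end, with 6.43 summits per 100 ends against 5.28 at the end. For STAG2 and p130 it was centred 50 bp before. A gap middle and a gene end are thus not the same position relative to a start. Tail-to-tail middles were at 0.96 (LIN54), 0.74 (STAG2) and 1.00 (p130) times their surroundings.

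**Figure D3:**
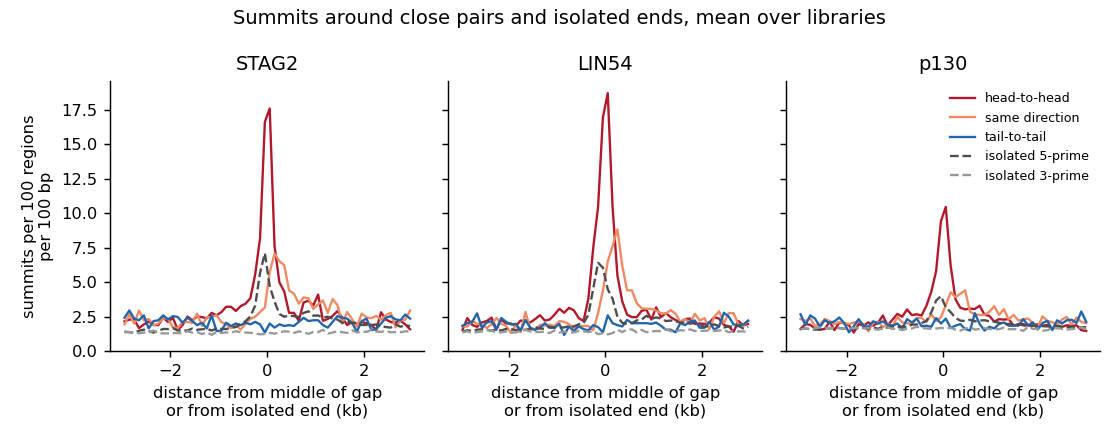
Summits per 100 regions and 100 bp against the distance from the middle of the gap, or from an isolated end (dashed), as the mean over the libraries of each antibody (deposited lists). Pairs of one direction and isolated ends run left to right in the direction of the gene, other pairs along the chromosome. Head-to-head pairs peak at 17.6, 18.7 and 10.5 for STAG2, LIN54 and p130, and tail-to-tail pairs and isolated 3′ ends stay flat.

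Head-to-head pairs were also read by the length of the gap, in the window on its middle that has the same width as at isolated ends. In the median library a summit lay in 68.2% of the 283 head-to-head pairs with gaps up to 100 bp, in 76.8% of the 155 with 101 to 250 bp, in 80.0% of the 85 with 251 to 500 bp and in 59.5% of the 42 with longer gaps. This window has the same width in every class, so it reaches less far into the genes where the gap is longer. The medians at q 0.01 were 14.5%, 32.9%, 34.1% and 23.8%, lowest in the class with the shortest gaps; these shares have no test.

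The strength of single pairs is described by the authors' best fold at a summit, given in the order of replicates and not tested between genotypes, since each library has its own background. Zranb3/R3hdm1 (gap between 128103053 and 128103282 of chromosome 1) ranked among the first 3 pairs for LIN54 in both genotypes, and Zranb3 encodes a remodeller of stalled replication forks. The LIN54 fold there was 24.2, 35.0 and 11.9 in LIN54-WT and 31.7 and 36.4 in LIN54-KO. The same region had 7.37 and 11.2 in STAG2-WT, 3.11 and 5.37 in STAG2-KO, and 2.23 to 7.54 in p130. A summit was present there in all 15 libraries.

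At Rnf5/Agpat1, a ubiquitin ligase beside an enzyme of phosphatidic acid synthesis, LIN54 folds were 23.0, 24.8 and 17.5 in WT and 28.2 and 32.7 in KO. All 6 p130 libraries had a summit there, with folds of 1.98 to 3.62, around the median of 2.51 of marked pairs. Folds of different antibodies rest on different backgrounds and are not compared. Ccdc189/Rnf40, a head-to-head pair that holds a histone H2B ubiquitin ligase, had LIN54 folds of 21.1, 22.3 and 12.1 in WT and 19.3 and 25.1 in KO. Psmb9/Tap1 is a head-to-head pair of antigen presentation, an immunoproteasome subunit and a peptide transporter. It had LIN54 folds of 12.3, 20.1 and 14.3 in WT and 28.8 and 22.6 in KO, and p130 folds of at most 2.60.

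For p130, H4c1/H3c1, of 2 replication-dependent histones, had p130 folds of 18.1, 13.8 and 21.0 in WT and 39.8, 22.4 and 24.5 in KO. The KO values lay above the WT values there, and LIN54 folds did likewise, with 5.88, 4.60 and 2.85 in WT and 14.6 and 10.9 in KO. Histone genes have near-identical copies, and how reads that fit several places were handled is not given, so these folds are uncertain. Slbp/Tmem129 had p130 folds of 9.35, 13.5 and 23.2 in WT and 24.3, 15.5 and 21.8 in KO. Dpagt1/H2ax, which holds the histone variant of DNA damage foci, had 16.03, 10.9 and 14.9 in WT and 21.7, 11.6 and 10.8 in KO. Mcm4/Prkdc joins a subunit of the replicative helicase to the kinase of DNA end joining, 43 bp apart (15637400 to 15637444 of chromosome 16), and had 13.1, 10.2 and 15.3 in WT and 20.2, 11.7 and 14.6 in KO. At these last 3 pairs the p130 values of WT and KO overlapped.

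The first pair for STAG2 in both genotypes was Caskin2/Tsen54 (gap between 115813658 and 115813728 of chromosome 11), a scaffold protein beside a subunit of the tRNA splicing endonuclease. Its STAG2 folds were 19.6 and 16.01 in WT and 9.23 and 13.2 in KO. Nhej1/Slc23a3, which holds a factor of DNA end joining, had 12.2 and 13.9 in WT and 4.08 and 7.54 in KO. Cnr2/Fuca1, a cannabinoid receptor beside a lysosomal fucosidase, had 10.6 and 14.7 in WT and 2.38 and 7.08 in KO. WT lay above KO without overlap at these 3 pairs, which the rule chose by their STAG2-WT rank. Hdlbp/Septin2, among the pairs ranked highest in STAG2-KO, had 7.14 and 11.3 in WT and 6.40 and 8.20 in KO, which overlapped.

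**Figure D4:**
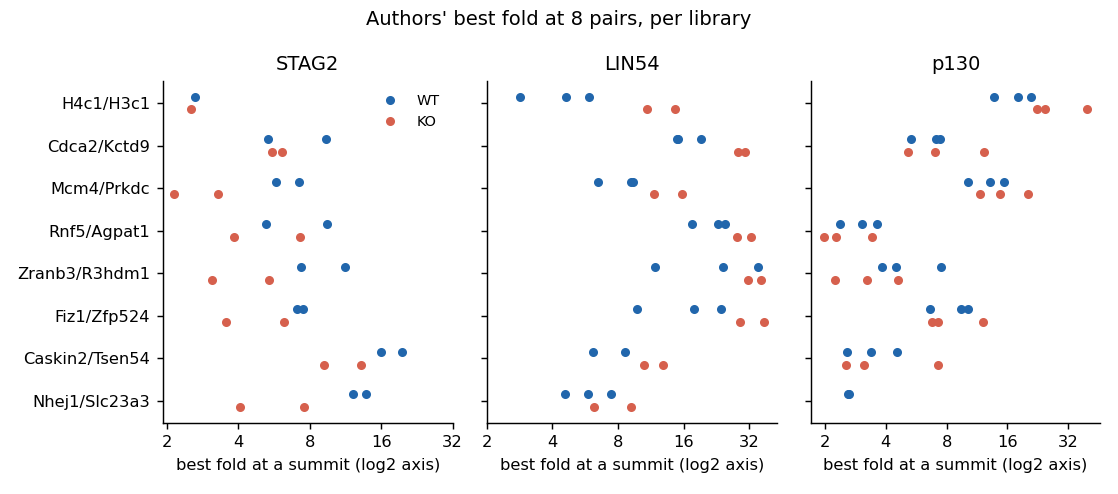
The authors' best fold at a summit (log2 axis, ranges differ between panels) in each library at 8 pairs, by antibody, WT in blue and KO in orange; a library without a summit has no point. H4c1/H3c1 leads for p130 (13.8 to 39.8), Zranb3/R3hdm1, Fiz1/Zfp524 and Rnf5/Agpat1 for LIN54, and Caskin2/Tsen54 for STAG2.

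Of the 2014 pairs, 61 had a summit in all 15 libraries (3.03%, against 0.76% of all gene ends) and 72 in none (3.57% against 12.2%) of the deposited lists. At q 0.01, 7 had one in all 15 libraries (0.348% against 0.075%) and 1039 in none (51.6% against 77.5%). The 7 were Prr11/Ska2, Aldh6a1/Lin52, Tbc1d10b/Mylpf, Tmem139/Casp2, Cdca2/Kctd9, Ttc9c/Hnrnpul2 and Fiz1/Zfp524, of which the first 3 are head-to-head and the last 3 have no known direction. Prr11 and Ska2 are genes of mitosis, Ska2 as part of the kinetochore. Their LIN54 folds were 9.73, 7.36 and 8.01 in WT and 25.2 and 24.6 in KO, and their p130 folds 2.95 to 7.97. Tmem139/Casp2, which holds the caspase of the response to DNA damage, had p130 folds of 12.5, 13.2 and 13.5 in WT and 19.2, 8.88 and 7.34 in KO. Fiz1/Zfp524, of 2 zinc finger genes, had LIN54 folds of 17.9, 23.8 and 9.80 in WT and 29.0 and 37.5 in KO.

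DREAM targets were present in 42 pairs, 25 with a G2/M gene and 17 with a G1/S gene. At q 0.01 a p130 summit in every WT library was found in 4 of the 25 G2/M pairs and 3 of the 17 G1/S pairs, against 27 of all 2014 pairs (1.34%) and 0.402% of all gene ends. In KO the counts were 5, 4 and 27, where 0.363% of gene ends were called. For LIN54 they were 7 and 2 in WT (8.09% of all pairs, 2.47% of gene ends) and 13 and 6 in KO (24.1% and 8.31%). Lists and pairs were chosen with earlier results of these data known, and these counts have no test.

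Cdca2/Kctd9, which holds a subunit that directs phosphatase to mitotic chromatin, led the DREAM pairs for LIN54 with 15.04, 19.1 and 14.96 in WT and 30.6 and 28.4 in KO. Both KO values lay above the 3 WT values. Cks1b/Shc1 had 7.83, 8.27 and 10.2 in WT and 20.6 and 15.4 in KO, and Tmem129/Tacc3, with a gene of the mitotic spindle, 10.2, 14.3 and 6.07 in WT and 18.3 and 20.04 in KO. Usp5/Cdca3 had 10.4, 16.5 and 5.59 in WT and 20.5 and 18.998 in KO, and Vps35/Orc6, with a subunit of the origin recognition complex, 6.66, 9.59 and 4.66 in WT and 15.6 and 15.1 in KO. These 5 pairs were thus all higher in the KO libraries of LIN54. Over the same libraries 15641 and 12915 peaks of the genome reached q 0.01 in KO and 2134 to 6512 in WT, and the part of that in these folds was not tested.

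Among p130 summits, those of Mcm4/Prkdc, Pcna/Cds2, Cdca2/Kctd9, Cks1b/Shc1, Slbp/Tmem129 and Ncapd2/Mrpl51 reached q 0.01 in all 6 libraries. Pcna encodes the sliding clamp of replication and Ncapd2 a subunit of condensin. At the other end, Ccna2/Bbs7 had no summit in any of the 15 libraries, and Plk1/Ern2 and Rhno1/Foxm1 had none at q 0.01. Ccna2, Plk1 and Foxm1 are classical DREAM targets, but these pairs have no known direction. Whether their gaps lie at the 5′ or the 3′ end of the target is thus not known here, and these absences cannot be assigned to a promoter or to a gene end. None of the 7 tail-to-tail DREAM pairs had a summit of q 0.01, near the 399 of all 422 tail-to-tail pairs (94.5%) without one.

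Other lists of pairs were read at q 0.01 for LIN54-KO and STAG2-WT, the groups with most summits. A STAG2 summit in every WT library was found in 359 of 2014 pairs (17.8%), where 6.5% of all gene ends were called. The counts were 13 of 55 pairs with a DNA repair gene, 8 of 25 with a replication-dependent histone, 6 of 27 with a cytosolic and 6 of 34 with a mitochondrial ribosomal protein and 4 of 16 with a proteasome subunit. A LIN54 summit in every KO library was found in 486 pairs (24.1%, 8.31% of gene ends) and in 25, 12, 10, 12 and 6 of those lists. Swi5/Golga2, head-to-head with a recombination factor, had STAG2 folds of 7.35 and 7.39 in WT and 4.19 and 2.83 in KO. Mrps12/Sars2, of 2 genes of mitochondrial translation, was marked at q 0.01 in 13 of 15 libraries.

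Histone pairs ranged widely. H2ac11/H2bc11 and H2ac22/H2bc22, both head-to-head, had a summit of q 0.01 in 10 and 11 libraries. Of the 25 histone pairs, 6 had no summit in any library of the deposited lists, against 72 of all 2014 pairs (3.57%) and 12.2% of gene ends. How reads of near-identical histone copies were handled is not given, so these zeros are uncertain too. Among stress and immediate early genes, Hspa1a/Hspa1l, of 2 heat shock proteins, had LIN54 folds of 7.06, 10.1 and 4.88 in WT and 9.31 and 7.24 in KO, STAG2 folds of 4.01 and 5.09 in WT and no STAG2 summit in KO. For p130 it had 3.04, 2.05 and 3.23 in WT, none of q 0.01, and no summit in KO. In the deposited lists 2.48% of all pairs and 1.21% of gene ends had a p130 summit in WT alone. For STAG2 these shares were 5.91% and 4.1%.

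Of the genes that mark cell types, 2 of 23 luminal, 1 of 13 basal and 0 of 12 fibroblast genes stand in close pairs. For smooth muscle, immune and endothelial genes it was 2 of 10, 3 of 16 and 2 of 10, against 3614 of all 20665 genes. The 2 pairs with a luminal gene, Zbtb32/Upk1a and Krt78/Krt8, had a summit in 7 and 3 of 15 libraries and none at q 0.01, and the same held for Lama3/Ttc39c with a basal gene (4 libraries). Of the smooth muscle pairs, Selenom/Smtn and Stambpl1/Acta2, both tail-to-tail, had one in 2 and 3 libraries. Among immune pairs Cd68/Eif4a1 had one in 11 libraries, and Eif4a1, which encodes a translation initiation helicase used by all cells, shares that gap. None of the 5 pairs of olfactory receptors had a summit of q 0.01 in every library of any group. By group, 1.34% to 24.1% of all pairs and 0.363% to 8.31% of gene ends had one, so so few pairs could well give none.

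The genotypes were compared within each antibody. For STAG2, 52.2% and 60.3% of pairs held a summit in WT and 41.6% and 54.0% in KO (deposited lists), which overlapped (difference -8.44 points, exact permutation p = 0.667). Peaks of q 0.01 lay in 36.1% and 22.7% of pairs in WT and 3.57% and 14.3% in KO, without overlap. The difference was -20.5 points (exact permutation p = 0.333, the smallest that 2 against 2 libraries allow). Head-to-head pairs went from 53.0% ± 14.4 to 19.6% ± 16.6 (SD, n = 2 and 2).

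For LIN54 the direction was the opposite. The deposited lists gave 53.4%, 54.6% and 49.0% of pairs in WT and 54.6% and 55.1% in KO (difference 2.50 points, exact permutation p = 0.5). At q 0.01 the shares were 16.8%, 20.5% and 11.1% in WT and 29.9% and 28.8% in KO, without overlap (difference 13.3 points, exact permutation p = 0.1, the smallest possible). Head-to-head pairs went from 33.98% ± 10.2 (n = 3) to 60.8% ± 0.38 (n = 2) at q 0.01. In the deposited lists they went from 77.5% ± 4.01 to 85.4% ± 0.88, also without overlap (exact permutation p = 0.1).

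For p130 fewer pairs were marked in KO. In the deposited lists 43.6%, 50.4% and 39.4% held a summit in WT and 34.2%, 34.9% and 30.8% in KO, without overlap (difference -11.2 points, exact permutation p = 0.1, the smallest possible). Within batch 3, where 2 WT and 3 KO libraries remain, the difference was -11.6 points. At q 0.01 the shares were 1.99%, 4.57% and 2.43% in WT and 3.53%, 2.04% and 1.79% in KO, which overlapped (exact permutation p = 0.6). None of these differences had an adjusted p under 0.1875 over the 24 tests of its threshold.

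Isolated ends moved with the pairs. At q 0.01 they went from 10.8% to 2.62% for STAG2 and from 3.92% to 8.81% for LIN54, and in the deposited lists from 23.4% to 18.9% for p130. The number of peaks at q 0.01 over the genome went the same way, from 25604 and 13193 to 1229 and 6752 for STAG2, and from 4729, 6512 and 2134 to 15641 and 12915 for LIN54. The part of the number of peaks in these differences was not tested. With the best 20000 peaks of each library the differences in pairs were -12.7 points (STAG2), 8.20 (LIN54) and -3.79 (p130). The log2 ratio of pairs to isolated ends went the other way from the shares at q 0.01: from 1.04 to 1.39 for STAG2 and from 1.62 to 1.31 for LIN54, both without overlap, and from 1.69 to 1.93 for p130, which overlapped. In the deposited lists it differed by 0.06, -0.03 and -0.13, and for p130 the genotypes did not overlap (0.58 ± 0.06 and 0.45 ± 0.05, n = 3 and 3, exact permutation p = 0.1).

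**Figure D5:**
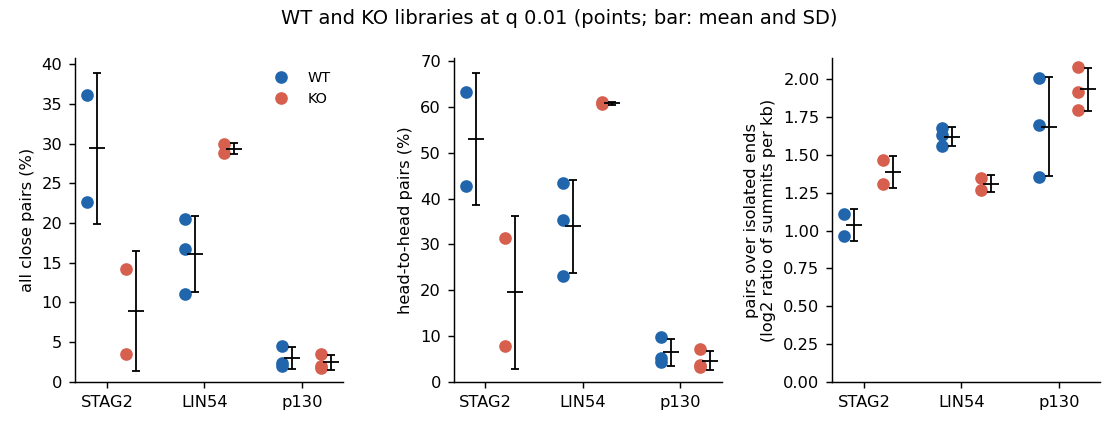
Values of single libraries at q 0.01 for WT (blue) and KO (orange), with mean and SD: percent of all close pairs with a summit (left), of head-to-head pairs (middle), and the log2 ratio of summits per kb in pairs over isolated ends (right). WT and KO do not overlap for STAG2 and LIN54, in opposite directions, and overlap for p130.

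Pair by pair, 825 pairs had a STAG2 summit in every WT library and 633 in every KO library of the deposited lists (41.0% and 31.4% of pairs, against 17.1% and 12.2% of gene ends). In WT alone (every WT and no KO library) 119 were marked (5.91%, against 4.1% of gene ends) and in KO alone 34 (1.69% against 1.54%). Without STAG2-WT replicate 1 or 2 or STAG2-KO replicate 1 or 2, the 119 became 261, 212, 185 and 310 and the 34 became 74, 144, 137 and 103. At q 0.01, 359 were marked in every WT and 60 in every KO library (6.5% and 1% of gene ends), 166 in WT alone (8.24% against 3.18%) and 1 in KO alone (0.0169% of gene ends). The 166 became 236, 484, 171 and 303 without STAG2-WT replicate 1, STAG2-WT replicate 2, STAG2-KO replicate 1 and STAG2-KO replicate 2. The 1 pair of KO alone became 3, 7, 25 and 4 pairs in the same order. It was Ints13/Fgfr1op2, which holds a subunit of the Integrator complex, with folds of 4.26 and 5.82 in KO and no summit in WT. By alphabet the first of WT alone were 6030458C11Rik/Drosha, with the nuclease that cuts primary microRNAs (3.97 and 3.97 in WT, 2.68 and 2.94 in KO), Adam9/Tm2d2 (4.21 and 5.22, 3.20 and 3.06) and Adamts13/Cacfd1 (5.24 and 6.32 in WT and 2.32 in 1 KO library). At these pairs weaker summits were thus still listed in KO.

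For LIN54, 626 pairs were marked in every WT and 896 in every KO library of the deposited lists (11% and 18.2% of gene ends), 19 in WT alone and 41 in KO alone (0.605% and 1.77% of gene ends). Leaving out any one of the 5 libraries gave 39 to 56 and 61 to 106. At q 0.01 the counts were 163 and 486 (2.47% and 8.31% of gene ends), and all 163 were marked in every library of both genotypes (2.4% of gene ends). None was marked in WT alone, where 0.00968% of gene ends were called, and 102 in KO alone (5.06% of pairs, against 2.16% of gene ends). The 102 rose to 124, 157, 111, 162 and 180 when LIN54-WT replicates 1, 2 and 3 and LIN54-KO replicates 1 and 2 were left out in turn. The first by alphabet were 6030458C11Rik/Drosha again, with LIN54 folds of 3.19, 2.62 and 3.46 in WT and 4.15 and 5.01 in KO, Abcb6/Atg9a, with a transporter and a lipid scramblase of autophagy (3.04, 2.82 and 2.23 in WT, 4.99 and 4.24 in KO), and Ache/Ufsp1, with acetylcholinesterase (2.17 and 2.84 in 2 WT libraries, 4.49 and 4.64 in KO).

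For p130, 317 pairs were marked in every WT and 193 in every KO library of the deposited lists (5.09% and 3.25% of gene ends), 50 in WT alone (2.48%, against 1.21% of gene ends) and 12 in KO alone (0.596% against 0.455%). Without p130-WT replicate 1, 2 or 3 the 50 became 108, 90 and 135, and leaving out any one of the 6 libraries gave 67 to 135 and 16 to 41. At q 0.01 the counts were 27 and 27, of which 22 were marked in all 6 libraries (0.271% of gene ends), and none in 1 genotype alone (0.0121% and 0.00242% of gene ends).

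The same pairs recurred within and across antibodies. Of pairs marked in either library (deposited lists), STAG2-WT replicate 2 shared 57.3% with STAG2-WT replicate 1 and 61.6% with LIN54-KO replicate 1. For p130-WT replicate 2 it was 39.0% and 41.6% with p130-WT replicates 1 and 3, and 54.7% with STAG2-WT replicate 2. The 2 LIN54-KO libraries shared 68.3%, more than either did with another antibody. A STAG2 summit was found in all 4 libraries at 449 pairs (22.3%, against 7.07% of gene ends) and in none at 368 (18.3% against 41.4%). LIN54 marked 559 pairs in all 5 libraries (27.8% against 9.15%) and missed 341 in all (16.9% against 38%). For p130 these counts were 100 (4.97% against 1.45%) and 243 (12.1% against 30.2%). Counting q 0.01 alone, 51 pairs had a STAG2 summit in all 4 libraries, KO included (0.881% of gene ends). No STAG2, LIN54 or p130 summit was found at 1161, 1281 and 1878 pairs, where 80.9%, 85.3% and 97.6% of gene ends had none.

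Pairs marked by more than 1 antibody were counted next. Of the pairs with a summit of q 0.01 in every WT library, 131 were shared by STAG2 and LIN54, 36.5% of the STAG2 pairs and 80.4% of the LIN54 pairs. Over all gene ends these shares were 29.6% and 78.1%. In KO 58 were shared, 96.7% of the 60 STAG2 pairs and 11.9% of the 486 LIN54 pairs, and over all gene ends 93.5% and 11.3%. Of the 27 p130 pairs, 20 were shared with LIN54 in WT (74.1%) and 25 in KO (92.6%), and over all gene ends 73.5% and 91.3%. The shares at pairs were thus near those at all gene ends. All 3 antibodies shared 19 in WT and 8 in KO. The control libraries (pMNase) were not used here.

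For LIN54, head-to-head promoters of marked and unmarked pairs differed more in CCAAT boxes than in CHR or E2F letters. A CCAAT box stood in 61.2% of the 196 promoters of head-to-head pairs with a LIN54 summit of q 0.01 in every library, in 36.8% of the 318 with none, and in 45.2% of all 1123 head-to-head promoters. For pairs with a p130 summit in every library it stood in 19 of 24 promoters and the E2F letters in 6 of 24, against 5.16% of all head-to-head promoters for E2F. CHR letters also stood in 6 of these 24 (25%), against 14.5% of all head-to-head promoters. With a STAG2 summit in every WT library, 54.9% of 388 promoters held a CCAAT box, 13.4% CHR letters and 4.90% E2F letters. CHR letters stood in 17.3% of the LIN54 promoters and in 14.5% of those without LIN54, near the 17.5% of all promoters. E2F letters stood in 5.10% of the LIN54 promoters and in 5.66% of those without LIN54. These shares are descriptions without a test. The 2 promoters of a pair overlap where the gap is short, so 1 site can count for both genes, and the 24 promoters come from 12 pairs.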

How the data were processed

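CUT&RUN libraries of mouse urothelium were read as peak lists, 1 per library. MACS2 peaks on mm10, after bcl2fastq and Bowtie2, are named per the submitters' processing notes; their versions, settings and the use of a control are not given in the sources used here. Each deposited list gives a fold ratio at the summit over the background of that library, and the authors' −log10 p and −log10 q. A region was marked where at least 1 summit fell in it. Summits per kb were compared as log2 ratios with a pseudocount of 0.5 summits. The library was the replicate, and two-sided exact permutation tests were used (sign flips, or all WT and KO splits), adjusted by Benjamini-Hochberg. P-values measure the spread between these libraries. Fragment numbers came from the deposited p and fold (100% whole within 0.0005 on the log10 scale) and cover counting error only. Genes and strands came from RefSeq tables of GRCm38.p6, and pMNase controls were left out.

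Members and lists were chosen with earlier results of these data known. Named pairs were the 3 with the best mean rank of fold per antibody and genotype, the first 3 by alphabet marked at q 0.01 in one genotype alone, the 6 DREAM pairs ranked best for LIN54, 2 pairs of each other list and the 3 marked in most libraries. Any other pair was picked with its values in view. Replicate numbers were not used to pair the samples. Correlations of same-numbered libraries ran from -0.019 to 0.049 and those of other-numbered libraries from -0.037 to 0.037. With 2 or 3 libraries a group these values cannot exclude a pairing. The statistics were tested on simulated data with 2014 regions, where a planted log2 ratio of 0.7 was recovered as 0.74. Computation used SciPy 1.17.1 with NumPy 2.4.6 and pandas 2.3.3 in Python 3.11.15, and Matplotlib 3.10.9 drew the plots.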

Additional observations from a re-analysis of the deposited data

Results flagged for a closer look

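The KO minus WT difference of close pairs differed between antibodies in 8 of 18 comparisons by an exact permutation of genotype within each antibody, each with an adjusted p of 0.0788 over the 18, above 0.05. At q 0.01, STAG2 and LIN54 moved in opposite directions without overlap (exact permutation p = 0.0167 each, 60 relabelings). The share of pairs differed by -33.7 points (-20.5 for STAG2 and 13.3 for LIN54), the share of head-to-head pairs by -60.3 points (-33.5 and 26.8), and the log2 ratio of pairs to isolated ends by 0.66 (0.35 and -0.31).

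LIN54 and p130 also differed (200 relabelings). In the deposited lists the share of pairs differed by 13.7 points (exact permutation p = 0.025) and that of head-to-head pairs by 20.3 points (exact permutation p = 0.03). At q 0.01 the differences were 13.8 points (exact permutation p = 0.035), 28.6 points (exact permutation p = 0.035) and -0.56 for the log2 ratio (exact permutation p = 0.03). All p130 libraries are of another batch than the LIN54 libraries, so antibody and batch cannot be told apart in this comparison.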

How the results depend on the processing

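Pairs exceeded isolated ends per kb under every alternative run, with log2 ratios of 0.48 to 1.21 (STAG2), 0.54 to 1.50 (LIN54) and 0.39 to 1.81 (p130), as did head-to-head pairs over isolated 5′ ends (0.37 to 1.54, 0.49 to 1.83 and 0.42 to 1.99). No genotype test had an adjusted p under 0.05, and with 2 or 3 libraries a group none could. The KO minus WT log2 ratio changed sign for p130 at q 0.01 (0.25) and for LIN54 in a window on the middle of the gap (0.016). Leaving out 1 library gave -0.041 to 0.17 for STAG2 and -0.081 to 0.012 for LIN54. Counts of pairs marked in one genotype alone moved most. At q 0.01 they were 1 (STAG2-KO), 0 and 102 (LIN54-WT, LIN54-KO) and 0 and 0 (p130), and with the best 20000 peaks 13, 2 and 63, and 10 and 0. With gaps up to 500 bp, and so fewer regions, they were 74 and 19 (STAG2), 25 (LIN54-KO) and 32 and 7 (p130). With 250 bp flanks p130-WT had 30, and in batch 3 alone 108. Leaving out 1 library gave 185 to 310 and 74 to 144 (STAG2), 39 to 56 and 61 to 106 (LIN54) and 67 to 135 and 16 to 41 (p130). Apart from fewer regions or libraries, the cause was not tested.

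With the replicate number as a block, a pairing the data could neither show nor exclude, the KO minus WT log2 ratio was 0.06, -0.05 and -0.13 for STAG2, LIN54 and p130. The share of pairs differed by -8.44, 0.819 and -11.2 points in that order, and no call changed. With a median of 6 to 13 fragments at a summit, weak occupancy was not detectable.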
